A study of Mus musculus with 6 samples.

Results

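Aquaporins are membrane channels that let water cross cells along an osmotic gradient, and 9 of their genes were followed here in the mouse uterus before implantation: *Aqp1*, *Aqp2*, *Aqp3*, *Aqp4*, *Aqp5*, *Aqp7*, *Aqp8*, *Aqp9* and *Aqp11*. The members were taken by name, and every probe whose RefSeq accession belongs to one of them was used, which gave 13 of the 55681 probes on the array and 9 of the 20145 genes named there. In the uterus, oestrogen drives fluid into the lumen, and under progesterone that fluid is absorbed and the lumen closes around the embryo. Water follows the salt that epithelial cells move, mainly chloride secreted through CFTR and sodium taken up through the epithelial sodium channel. *Aqp3*, *Aqp7* and *Aqp9* encode channels that also pass glycerol, whereas *Aqp11* encodes a distant member of the family that resides in internal membranes.

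RNA came from whole uteri of female mice at gestation day (GD) 3.5 of a natural pregnancy, mated at 8 to 10 weeks of age, from which the embryos had been flushed. In *Sox17ed/ed* mice (LtfiCre/+ Sox17 f/f) an iCre recombinase made from the *Ltf* locus, active in the uterine epithelium from sexual maturity, deletes the floxed alleles of *Sox17*, which encodes a transcription factor. *Sox17f/f* littermates carry the same floxed alleles without the recombinase, and endothelium, which also makes SOX17, keeps it in both genotypes. Each genotype was measured on 3 arrays of 1 colour, 1 biological sample to an array. A level below is the normalized log2 signal of a probe, and a difference is *Sox17ed/ed* minus *Sox17f/f* on that scale. Levels of different probes are not compared as amounts of RNA, since each probe binds its target with its own strength. The summed signals of marker lists given below therefore weigh the brighter probes most.

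The 6 arrays lay on 1 slide with each genotype in its own line, so genotype and place on the slide cannot be told apart. Between 56.8% and 65.7% of the spots other than controls were well above background, the scanner software's call, and 0 spots were saturated. The array number limits the precision of every value. *Sox17* itself read 12.21, 12.07 and 12.22 on the *Sox17f/f* arrays and 9.75, 9.59 and 9.81 on the *Sox17ed/ed* arrays, a difference of -2.45 (SE 0.09, limma adjusted p = 2.57e-05), and its other probe gave -2.97. Where these probes lie relative to the deleted exons is not given in the sources used here. Of the 10 markers of uterine epithelium, 5 were higher in *Sox17ed/ed* uteri and 0 lower, and their summed linear signal was 3.652e+04 to 3.880e+04 on the *Sox17f/f* arrays and 4.711e+04 to 5.883e+04 on the *Sox17ed/ed* arrays. *Krt19*, a keratin gene that mesothelium also expresses, made up most of that rise, and without it the sums were 3.209e+04 to 3.509e+04 and 3.203e+04 to 3.837e+04, which overlap. *Krt18* (-0.16), *Epcam* (0.10), *Esrp1* (-0.06), *Cldn4* (-0.34) and *Elf3* (0.61) did not pass, and *Krt18* made up most of the sums without *Krt19*. Of the 9 endothelial markers, *Cldn5* alone passed, as higher, with a list median of -0.32 and a summed signal of 6.210e+04 to 6.409e+04 in *Sox17f/f* against 4.800e+04 to 5.168e+04 in *Sox17ed/ed* uteri.

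The aquaporins moved in both directions. *Aqp5* and *Aqp3* were higher in *Sox17ed/ed* uteri, *Aqp8* and *Aqp11* were lower, and *Aqp1*, *Aqp2*, *Aqp4* and *Aqp7* did not pass the thresholds of the study's methods, an unadjusted p under 0.01 with a fold of at least 1.4. *Aqp9* did not rise well above background anywhere and was not tested. Thus 4 of the 8 aquaporin genes tested passed, beside 1851 of all 14797 genes tested, or 12.5%. The share of all genes that was higher was 6.03% and the share that was lower 6.48%, beside 2 aquaporins each way. An adjusted p under 0.05 was reached by 4 aquaporins and by 18.9% of all genes. The genotypes did not overlap for 5 aquaporins and for 40.5% of all genes. Of the 12 aquaporin probes tested on their own, 7 passed, beside 9.88% of all 32520 probes tested. The median difference over the 8 genes was -0.13, against -0.00 over all genes tested, and the median size of a difference over all genes was 0.17.

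**Figure D1:**
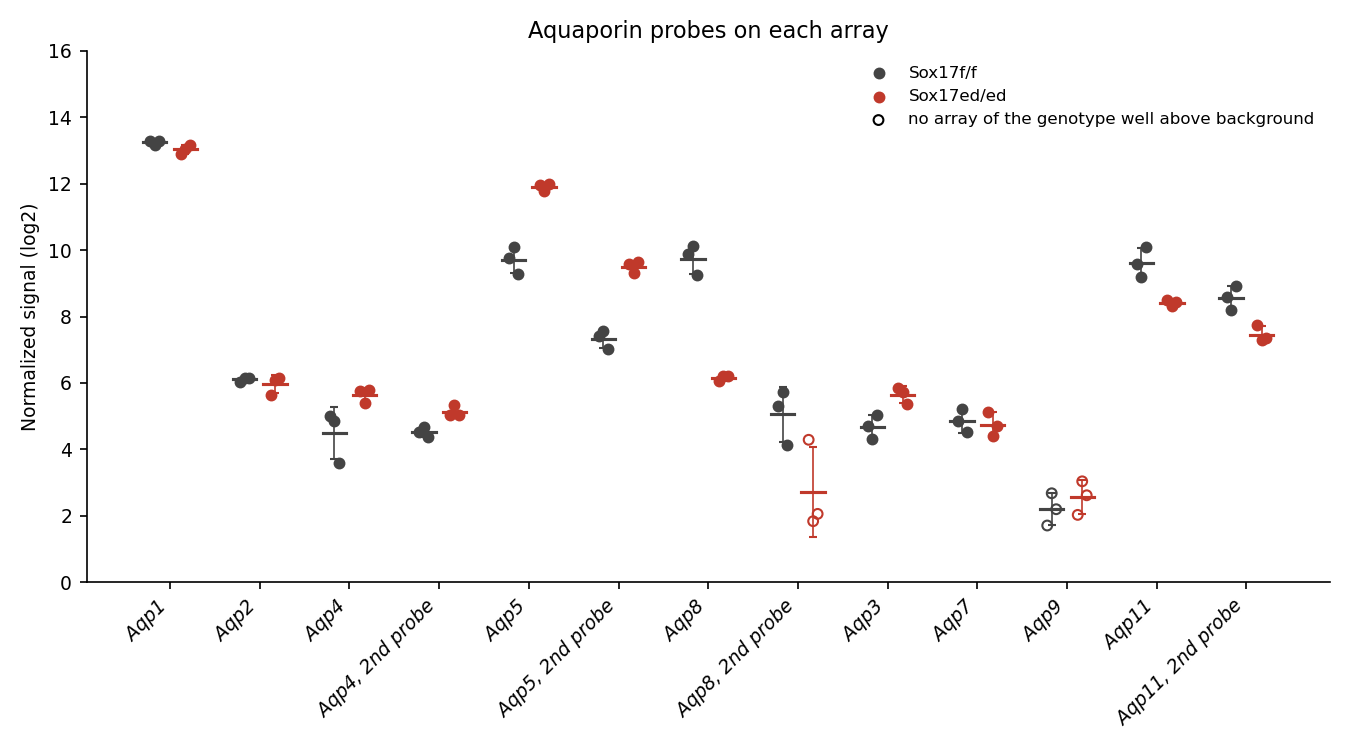
Normalized log2 signal of the 13 aquaporin probes on each of the 6 arrays; points are arrays, thick lines genotype means and bars the SD (n = 3 arrays), and open points mark a genotype in which the probe never rose well above background. The *Sox17f/f* and *Sox17ed/ed* points are apart for both probes of *Aqp5*, *Aqp4* and *Aqp11*, for *Aqp3* and for the brighter probe of *Aqp8*.

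The stretch just before the start site of each gene that passed is shown so that a reader can see which sequences the 4 changed aquaporins carry there. These 250 bases are from RefSeq on GRCm38.p6, 5′ to 3′ on the strand of the gene, ending just before the start site. Capitals mark every match to the motifs searched, which were a SOX core (ACAAT or ATTGT), a forkhead core (GTAAACA or TGTTTAC), the oestrogen half-site (GGTCA or TGACC), the full oestrogen response element made of both half-sites 3 bases apart, a progesterone response core (ACA and TGT 3 bases apart) and a TATA box (TATAAA or TTTATA), each on both strands. The windows are chr15:99590778-99591027 on the plus strand for *Aqp5*, chr7:123462044-123462293 on the plus strand for *Aqp8*, chr7:97738248-97738497 on the minus strand for *Aqp11* and chr4:41098184-41098433 on the minus strand for *Aqp3*.
Aqp5: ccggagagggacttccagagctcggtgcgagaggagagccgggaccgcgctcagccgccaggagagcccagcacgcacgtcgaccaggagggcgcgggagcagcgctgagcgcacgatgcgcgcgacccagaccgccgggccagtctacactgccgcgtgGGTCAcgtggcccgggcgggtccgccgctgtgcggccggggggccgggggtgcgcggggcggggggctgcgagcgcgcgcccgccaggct
Aqp8: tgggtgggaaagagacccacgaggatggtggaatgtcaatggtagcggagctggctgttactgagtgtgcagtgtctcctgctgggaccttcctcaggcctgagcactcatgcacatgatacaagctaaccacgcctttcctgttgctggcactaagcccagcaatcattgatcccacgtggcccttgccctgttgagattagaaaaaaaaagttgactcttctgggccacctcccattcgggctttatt
Aqp11: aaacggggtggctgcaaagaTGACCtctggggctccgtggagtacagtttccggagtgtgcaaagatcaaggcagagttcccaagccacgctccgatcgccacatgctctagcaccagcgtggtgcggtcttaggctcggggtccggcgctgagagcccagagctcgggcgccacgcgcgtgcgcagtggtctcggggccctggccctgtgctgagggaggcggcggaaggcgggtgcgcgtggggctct
Aqp3: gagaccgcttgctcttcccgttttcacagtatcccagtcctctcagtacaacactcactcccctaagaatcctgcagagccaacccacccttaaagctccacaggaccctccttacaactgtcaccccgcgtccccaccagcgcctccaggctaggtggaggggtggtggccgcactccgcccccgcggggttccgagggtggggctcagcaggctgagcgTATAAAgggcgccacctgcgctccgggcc

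Windows were found for 8 of the 9 members, 10 windows in all since *Aqp7* and *Aqp9* have a pair of start sites each. The SOX core was found in 0 of the 10, and it stands in 27.7% of all 32851 windows of that length. The forkhead core, the full oestrogen element and the progesterone core were also found in 0 of the 10, and their shares over all windows are 3.17%, 0.0639% and 5.84%. The oestrogen half-site, which is also one arm of the full element, was found in 5 windows and in 35.2% of all windows. In *Aqp5* it lies 90 to 86 bases before the start and in *Aqp11* 230 to 226 bases before it, while the *Aqp8* and *Aqp3* windows hold none. Both *Aqp7* windows and 1 of the *Aqp9* windows hold it as well. The *Aqp7* windows overlap and share a half-site, so the same site is counted in both. The window of *Aqp3* has a TATA box 29 to 24 bases before the start, a motif found in 12.4% of all windows. A match describes these letters only and is no evidence of binding.

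*Aqp5*, the channel of secretory glands such as salivary and lacrimal glands, showed the largest rise among the aquaporins tested. Its brighter probe read 9.76, 10.09 and 9.28 on the *Sox17f/f* arrays and 11.96, 11.77 and 12.00 on the *Sox17ed/ed* arrays. The lowest *Sox17ed/ed* array lay well clear of the highest *Sox17f/f* array. The difference was 2.20 (SE 0.20, 95% interval 1.70 to 2.70), a 4.60-fold higher signal, with a limma adjusted p of 0.000975. In size it was 298th among the 14797 genes tested. The dimmer *Aqp5* probe read 7.42, 7.57 and 7.01 against 9.58, 9.30 and 9.63, a difference of 2.17 (probe-level limma adjusted p = 0.00124). Both probes therefore gave the same direction and nearly the same size, and on both of them the lowest array was replicate 3 of *Sox17f/f*. *Aqp5* passed under each of the 11 other ways of processing, between 2.06 and 2.20, and whichever array was left out, between 1.98 and 2.38. The 5 uterine epithelium markers that passed moved in the same direction as *Aqp5*, with a median difference of 0.60 over the list and overlapping sums once *Krt19* was left out, and their part in the result was not tested. In bulk tissue, a change in the number of cells of a type and a change in the RNA of each cell cannot be told apart.

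*Aqp8*, a channel of several secretory and absorptive epithelia, showed the largest fall. Its brighter probe read 9.88, 10.11 and 9.24 on the *Sox17f/f* arrays and 6.05, 6.22 and 6.22 on the *Sox17ed/ed* arrays, with every array of the latter well above background. The difference was -3.58 (SE 0.22, 95% interval -4.11 to -3.05), a 12.0-fold lower signal (limma adjusted p = 0.000183), and in size it was 112th among the genes tested. The other *Aqp8* probe was dim, at 5.32, 5.72 and 4.12 against 4.29, 1.84 and 2.06, and no *Sox17ed/ed* array had it well above background. It gives a bound of at least 2.43-fold lower in *Sox17ed/ed* uteri, its genotypes overlap by 1 array, and it did not pass (probe-level limma adjusted p = 0.115). *Aqp8* passed under all 11 alternatives and with each array left out, with differences from -3.84 to -2.76. None of the epithelial markers was lower at the thresholds. Of the markers of exocrine pancreas, where *Aqp8* is also made, *Cpa1* (-1.23) and *Cel* (-0.52) were lower among 5 tested, and *Prss2* and *Pnlip* were not tested for want of signal. The summed signal of the pancreas list was 477.0 to 533.1 on the *Sox17f/f* arrays and 353.3 to 413.8 on the *Sox17ed/ed* arrays, and its part in the result was not tested.

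*Aqp11*, whose product lies in internal membranes and whose loss in mice gives cystic kidneys, was lower by both probes. The brighter one read 9.59, 9.20 and 10.08 on the *Sox17f/f* arrays and 8.50, 8.31 and 8.45 on the *Sox17ed/ed* arrays, a difference of -1.20 (SE 0.22, 95% interval -1.73 to -0.68), or 2.31-fold lower (limma adjusted p = 0.0127). The other read 8.59, 8.19 and 8.91 against 7.74, 7.28 and 7.34, a difference of -1.11 (probe-level limma adjusted p = 0.0288). Neither probe overlapped between the genotypes. Replicate 3 of *Sox17f/f* was the highest array for *Aqp11*, whereas the same array was the lowest for *Aqp5* and *Aqp8*. The 3 *Sox17f/f* arrays were more spread than the *Sox17ed/ed* arrays for these genes, with SDs (n = 3) of 0.44 and 0.10 for *Aqp11*, 0.41 and 0.12 for *Aqp5* and 0.45 and 0.10 for *Aqp8*, beside a median within-genotype SD of 0.12 over all genes. *Aqp11* passed under all 11 alternatives, from -1.22 to -1.01, and its adjusted p under an ordinary linear model was 0.0640.

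**Figure D2:**
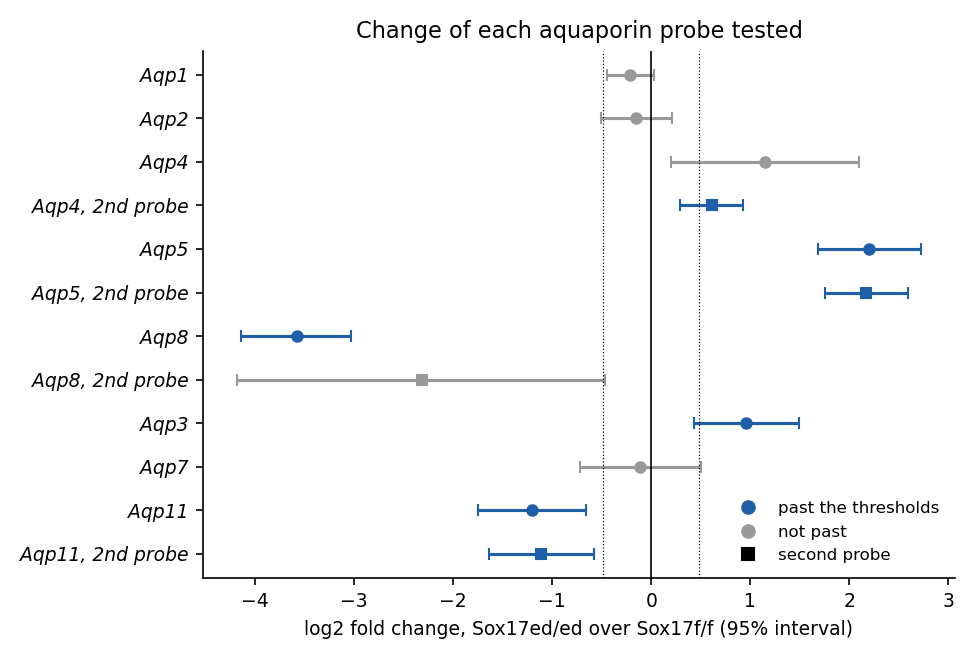
Difference in normalized log2 signal, *Sox17ed/ed* minus *Sox17f/f*, of the 12 aquaporin probes tested, with 95% intervals from limma; dotted lines mark a 1.4-fold difference either way, and blue marks probes past both thresholds. The intervals of the second probes of *Aqp5* and *Aqp11* cover those genes' first estimates, 2.20 and -1.20, and the widest interval is that of the dim *Aqp8* probe, -4.18 to -0.47.

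*Aqp3*, a channel for water and glycerol of the kidney collecting duct and of stratified epithelia, was higher in *Sox17ed/ed* uteri, but at a low signal. Its single probe read 4.72, 4.31 and 5.03 on the *Sox17f/f* arrays and 5.85, 5.73 and 5.37 on the *Sox17ed/ed* arrays, all well above background and with no overlap. The difference was 0.96 (SE 0.21, 95% interval 0.46 to 1.47), or 1.95-fold higher (limma adjusted p = 0.0248). The call was lost under 4 of the 11 alternatives and without *Sox17ed/ed* replicate 1 (0.85) or replicate 2 (0.91). With normexp background correction the difference fell to 0.36, under the fold threshold. Among the markers of stratified squamous epithelium, *Krt5* was at least 6.87-fold higher (well above background on 0 *Sox17f/f* arrays and on 3 *Sox17ed/ed* arrays, limma adjusted p = 0.0444). Replicate 1 raised that bound, since *Krt5* read 7.80, 4.94 and 5.33 on the *Sox17ed/ed* arrays and the bound without that array is 3.71-fold. The other 3 tested did not pass, and *Krt4*, *Ivl*, *Dsg3* and *Krt6a* lacked the signal to be tested. The summed signal of that list was 2498 to 3004 in *Sox17f/f* and 2527 to 2776 in *Sox17ed/ed* uteri, so the ranges overlap. *Trp63*, at means of 11.38 and 11.26, made up nearly all of that sum. The overlap therefore says little about *Krt5*, *Krt13* or *Krt14*. By quantitative PCR, the study reports higher *Trp63* mRNA in *Sox17ed/ed* than in *Sox17f/f* uteri. The *Trp63* probe used here differed by -0.12 and did not pass.

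*Aqp4*, the main water channel of astrocytes, also present in some epithelia, gave different calls on its 2 probes. The probe used for the gene read 5.01, 4.87 and 3.60 on the *Sox17f/f* arrays and 5.75, 5.39 and 5.79 on the *Sox17ed/ed* arrays, and on *Sox17f/f* replicate 3 it was not well above background. The arrays lay apart with a difference of 1.15 (SE 0.38, 95% interval 0.24 to 2.07), which did not pass (limma adjusted p = 0.0849). The other *Aqp4* probe read 4.52, 4.68 and 4.38 against 5.03, 5.35 and 5.03, a smaller difference of 0.61 that did pass (probe-level limma adjusted p = 0.0384). Both probes were higher in every *Sox17ed/ed* array than in any *Sox17f/f* array, but at a low signal, as for *Aqp3*. Without *Sox17f/f* replicate 3 the gene passed at 0.73, and with normexp background correction its difference was 0.27 and did not pass. Of 5 glial markers tested, *Mbp*, a myelin protein gene, was higher by 1.72 and the others did not pass, and the summed signal was 773.6 to 840.6 in *Sox17f/f* and 1606 to 1849 in *Sox17ed/ed* uteri. Without *Mbp* the sums overlapped, at 356.2 to 410.5 and 300.8 to 404.4. The part of the glial markers in the *Aqp4* values was not tested.

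*Aqp1*, the water channel of vessel walls and red cells, read 13.27, 13.17 and 13.28 on the *Sox17f/f* arrays and 12.88, 13.04 and 13.17 on the *Sox17ed/ed* arrays. The genotypes met at 13.17, and the difference of -0.21 (SE 0.09, 95% interval -0.43 to 0.02) did not pass (limma adjusted p = 0.174). The interval leaves room for a modest fall in *Aqp1* and for a change close to none. The endothelial markers given above had a median of -0.32 and a lower summed signal in *Sox17ed/ed* uteri. Of 8 markers of smooth muscle, *Actg2* alone passed, at -0.64, with a list median of -0.28 and a summed signal of 4.945e+05 to 5.462e+05 in *Sox17f/f* against 3.684e+05 to 4.439e+05 in *Sox17ed/ed* uteri. Of the 4 erythrocyte markers tested 0 passed, and the summed signals overlapped. The part of these cell types in the *Aqp1* values was not tested.

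*Aqp2*, the vasopressin-controlled channel of the kidney collecting duct, read 6.04, 6.15 and 6.16 against 5.65, 6.08 and 6.16, with overlapping genotypes and a difference of -0.15 (95% interval -0.50 to 0.19, limma adjusted p = 0.500). Without *Sox17ed/ed* replicate 1, the lowest array, the *Aqp2* difference was 0.00. *Aqp7*, which lets glycerol out of fat cells, read 4.85, 5.21 and 4.51 against 5.13, 4.39 and 4.71, a difference of -0.11 (95% interval -0.70 to 0.48, limma adjusted p = 0.792), and 2 of the 3 *Sox17ed/ed* arrays were well above background. The interval of *Aqp7* is wide enough to hold a fall past the fold threshold. Its sign turned to 0.07 without *Sox17f/f* replicate 2 or without *Sox17ed/ed* replicate 2. The fat cell markers *Plin1*, *Cidec*, *Lep* and *Retn* lacked the signal to be tested, and 0 of the 3 tested passed.

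*Aqp9*, the glycerol channel of liver cells and leukocytes, did not rise well above background on any of the 6 arrays, so no fold is given. The other aquaporin genes on the array, *Mip* of the eye lens, *Aqp6* of kidney intercalated cells and *Aqp12*, did not do so either. Of the leukocyte markers, 6 were tested and *Cd14* alone passed, lower by -1.15, and of the 4 neutrophil markers tested 0 passed. The study groups *Cd14* with genes of the uterine epithelium. The summed leukocyte signal was 1.931e+04 to 1.964e+04 in *Sox17f/f* and 2.005e+04 to 2.153e+04 in *Sox17ed/ed* uteri.

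**Figure D3:**
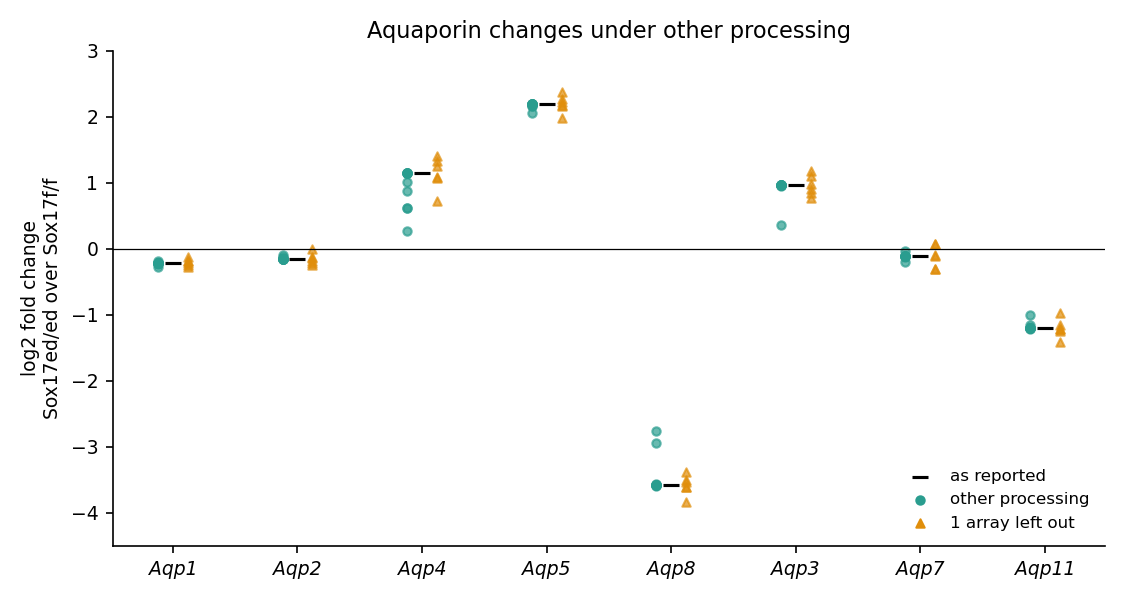
Difference in log2 signal of the 8 aquaporins tested, *Sox17ed/ed* minus *Sox17f/f*, as reported (black bar), under other processing (circles) and with 1 array left out (triangles). *Aqp5* stays between 1.98 and 2.38 and *Aqp8* between -3.84 and -2.76. *Aqp3* ranges from 0.36 to 1.18, *Aqp2* from -0.25 to 0.00 and *Aqp7* from -0.30 to 0.07.

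Genes that carry the salt movement water follows were then examined. The list of chloride secretion and sodium absorption had 19 of 21 genes tested, of which 6 were higher and 2 lower, with a median of 0.27. *Scnn1a*, the alpha subunit of the epithelial sodium channel, read 7.64, 7.56 and 7.68 on the *Sox17f/f* arrays and 11.62, 11.28 and 11.45 on the *Sox17ed/ed* arrays, a difference of 3.82 (limma adjusted p = 1.08e-05). *Kcnq1*, a potassium channel subunit of transporting epithelia, rose by 2.72 (limma adjusted p = 1.08e-05), from 7.36 to 7.49 on the *Sox17f/f* arrays to 10.07 to 10.22 on the *Sox17ed/ed* arrays. *Kcne3*, which encodes a partner subunit of that channel in chloride-secreting epithelia, was lower, at 8.84, 9.09 and 8.48 against 7.11, 7.04 and 6.96 (difference -1.77, limma adjusted p = 0.000765). *Slc26a6*, an exchanger of chloride and bicarbonate, was lower by -1.28 (limma adjusted p = 0.0220). Smaller rises included those of *Sgk1* (1.68), the kinase that keeps the sodium channel at the membrane, *Slc9a3r1* (0.87) and *Scnn1b* (0.69). The value of *Cftr*, the chloride channel of uterine secretion, was -0.55 and did not pass (limma adjusted p = 0.0715), and *Scnn1g* and *Slc26a3* lacked the signal to be tested. Genes of both sodium uptake (*Scnn1a*) and epithelial potassium channels (*Kcnq1*) were thus higher, while *Kcne3* and *Slc26a6* were lower.

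Of the hormone receptors and trafficking genes that control aquaporins, 15 were tested, 1 was higher and 1 lower, and the list median was -0.03. *Trpv4*, a calcium channel opened by swelling, rose by 1.53 (limma adjusted p = 0.000153), from 9.93 to 10.11 on the *Sox17f/f* arrays to 11.46 to 11.69 on the *Sox17ed/ed* arrays. *Akap7*, an anchor of protein kinase A, was lower by -0.90 (limma adjusted p = 0.00629). *Avpr2*, the vasopressin receptor that acts on *Aqp2* in the kidney, was well above background on 1 *Sox17f/f* array, at 4.83, near the *Sox17ed/ed* arrays (4.89 to 5.26) while the others read 2.07 and 2.27, and it did not pass (limma adjusted p = 0.107).

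Of 10 genes tested for the response to tonicity, 1 was higher and 1 lower, with a median of 0.10. *Slc6a12*, the betaine carrier, was higher by 1.12 (limma adjusted p = 0.0134), whereas *Slc6a6*, the taurine carrier, was lower by -0.78 (limma adjusted p = 0.0231). *Nfat5*, the transcription factor of the tonicity response, differed by 0.06 and did not pass. Of 10 glycerol genes tested, *Gpd1*, which makes glycerol phosphate, and *Mgll*, which frees glycerol from monoglyceride, were higher by 3.33 and 0.78. *Dgat2*, which uses diglyceride to make triglyceride, was lower by -2.59. It read 14.34, 14.13 and 13.90 against 11.52, 11.47 and 11.61, the largest fall in the list. Among the glycerol-passing aquaporins, *Aqp3* passed, *Aqp7* did not and *Aqp9* was not tested.

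Tight junctions set how much water and salt leak between cells. Of 15 tight junction genes tested, 5 were higher and 3 lower, with a median of 0.21. *Cldn2*, whose claudin forms pores for sodium and water, rose by 3.31 (limma adjusted p = 0.00109), from 4.62, 5.03 and 3.77 to 7.95, 7.57 and 7.82. *Cldn8*, a claudin of tight epithelia, rose by 2.21 (limma adjusted p = 0.0112). *Cldn23* fell by 1.81 and *Cldn3* fell by 1.16 (limma adjusted p = 0.000311 and 0.000290). Beside the 12.5% of all genes that passed, the shares were 42.1% of the salt genes (8 of 19), 13.3% of the trafficking genes (2 of 15), 20.0% of the tonicity genes (2 of 10), 30.0% of the glycerol genes (3 of 10) and 53.3% of the tight junction genes (8 of 15). The trafficking share is close to that of all genes, and the lists were not tested as sets. The part of the uterine epithelium markers in these counts was not tested.

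**Figure D4:**
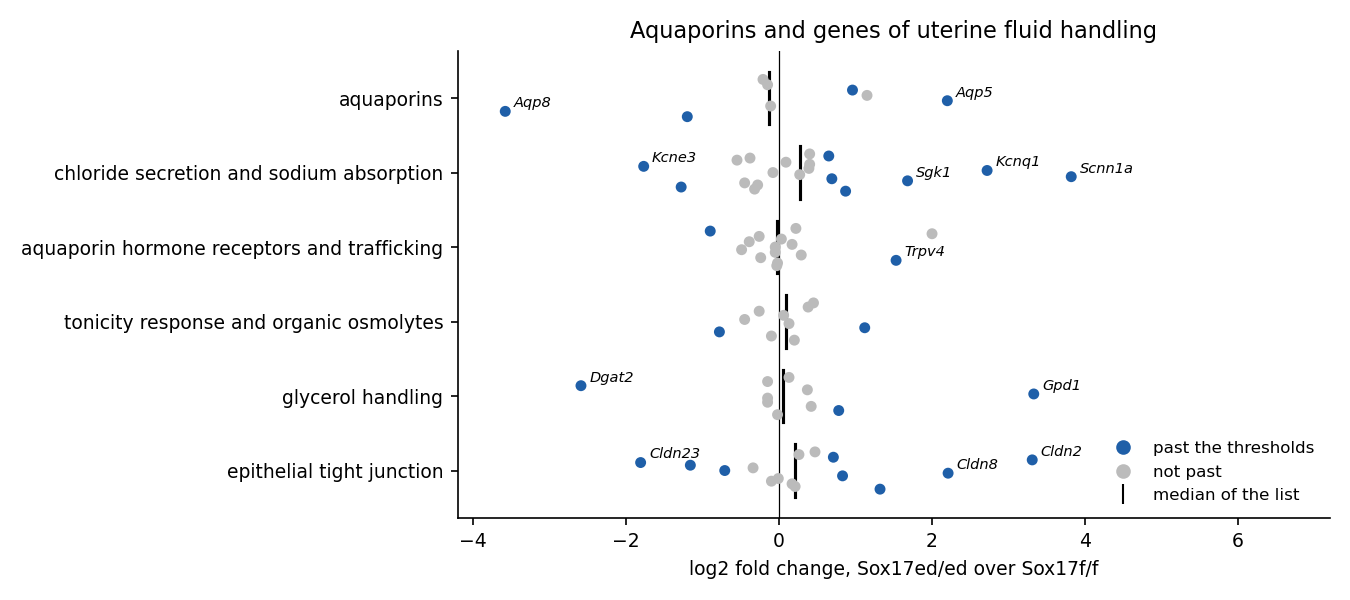
Difference in log2 signal, *Sox17ed/ed* minus *Sox17f/f*, of each gene tested among the aquaporins and the 5 lists of fluid handling; points are genes, blue where past the thresholds, and black bars are list medians. Each list has genes past the thresholds on both sides of 0, from *Scnn1a* at 3.82 to *Aqp8* at -3.58.

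The nearest genes tested on each side of the changed aquaporins mostly did not pass. *Aqp2* lies beside *Aqp5* in the gene order and had a difference of -0.15, while *Faim2*, the gene past *Aqp2*, rose by 1.70 (limma adjusted p = 0.00678). On the other side of *Aqp5*, *Racgap1* (0.44) and *Smarcd1* (-0.29) did not pass. The neighbours of *Aqp8*, which are *Arhgap17*, *Lcmt1*, *Zkscan2* and *Kdm8*, differed by -0.10 to 0.14 and did not pass. *Aqp3* and *Aqp7* lie next to each other, and *Aqp7*, *Nfx1*, *Nol6* and *Ube2r2* did not pass. Beside *Aqp11*, *Pak1* was lower by -0.51 (limma adjusted p = 0.0218), and *Rsf1*, *Clns1a* and *Myo7a* did not pass.

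The genes whose values over the 6 arrays ran closest to those of each changed aquaporin, after subtracting the *Sox17f/f* mean, were found by the root mean square difference in log2 signal. For *Aqp5* these were *Zbtb32* (0.15), *Aldoc* (0.18), an aldolase of glycolysis, and *Clu* (0.19), a secreted chaperone. For *Aqp8* they were *Fbxw14* (0.11), well above background on 0 *Sox17ed/ed* arrays and at least 4.90-fold lower there, *Car12* (0.12), a carbonic anhydrase, and *Slc2a3* (0.23), a glucose carrier. For *Aqp11* they were *Insl6* (0.14), *Islr2* (0.15) and *Thbs1* (0.16), and for *Aqp3* they were *Hgfac* (0.11), *Slc7a4* (0.11) and *Tnfrsf13c* (0.13). *Tnfrsf13c* was well above background on 1 *Sox17f/f* array and on 3 *Sox17ed/ed* arrays. The 6 arrays share the genotypes and the slide, so a close match describes these arrays only.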

How the data were processed

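RNA was measured on Agilent 1-colour arrays. Per the file headers, the authors used Feature Extraction 11.0.1.1 (the submitters' processing notes list 9.1) to make the deposited spot intensity, with background subtracted and no normalization between arrays. The deposited table of processed values was within 0.191% of the mean of that intensity per probe.

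Log2 intensities without control and flagged spots were quantile normalized over the 6 arrays, spots averaged per probe, and probes kept that were well above background on at least 3 arrays with a value on all 6. Accessions named 26582 of 55681 probes, and the brightest probe stood for a gene. Limma 3.58.1 in R 4.3.3 (eBayes, Benjamini-Hochberg over 14797 genes, or 32520 probes) gave each test, tested on simulated data. The exact two-sided permutation test cannot go below p = 0.1 with 3 arrays against 3. Where a genotype had a probe well above background on no array, the fold is a bound: the other genotype's mean over the mean of a floor, which per array is the lowest signal called well above background or the probe's own signal if that is higher.

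Members and lists were chosen with earlier results of these data known. Genes named are all members and *Sox17*, the 2 highest and 2 lowest passing genes of each list, nearest neighbours and closest profiles; others (such as *Cftr*, *Avpr2*, *Nfat5* and smaller changes) were named with their values seen. Marker lists covered uterine epithelium, endometrial stroma, smooth muscle, endothelium, erythrocyte, adipocyte, leukocyte, neutrophil, squamous epithelium, mesothelium, glia, oviduct and pancreas. Alternatives were a 75th percentile shift, normexp (offset 50, on the median signals, as no mean signal column was used), no filter, a filter on all 6 arrays, averaged probes, the smallest-p probe, an ordinary linear model, eBayes with a trend, a replicate block, the deposited values, an adjusted p under 0.05, and each array left out. The marker sums without *Krt19* or *Mbp* and the *Krt5* bound without 1 array were chosen after seeing the data.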

Additional observations from a re-analysis of the deposited data

How the results depend on the processing

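*Aqp5*, *Aqp8* and *Aqp11* kept their direction and their call under all 11 alternatives and with each array left out. *Aqp3* no longer passed after the 75th percentile shift (0.97), normexp (0.36), the ordinary linear model (0.96) and the replicate block (0.96). With 1 array left out it ranged from 0.77 to 1.18, not passing without *Sox17ed/ed* replicate 1 (0.85) or 2 (0.91). *Aqp4* passed after the shift (1.01), the filter on all 6 arrays (0.61), the mean of the probes (0.88) and the probe with the smallest p (0.61), and with 1 array left out it ranged from 0.73 to 1.4, passing without *Sox17f/f* replicate 3 (0.73). Under normexp it was 0.27 and did not pass. *Aqp2* ranged from -0.25 to 0.00, reaching 0.00 without *Sox17ed/ed* replicate 1. *Aqp7* ranged from -0.30 to 0.07, with 0.07 without replicate 2 of either genotype. Without a filter *Aqp9* gave 0.37 (limma adjusted p = 0.550), from signals not well above background. The cause of these shifts was not tested.

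All genes past the thresholds numbered 2804 with the adjusted p alone. Of the aquaporin probes, 4 passed under the ordinary linear model. Of the trafficking genes, 1 passed under the mean of the probes, and 2 to 4 with 1 array left out (4 without *Sox17f/f* replicate 3). Of the tonicity genes, 0 passed under the ordinary linear model, 4 with the adjusted p alone, and 1 to 3 with 1 array left out (1 without *Sox17f/f* replicate 1 or *Sox17ed/ed* replicate 3). Samples with the same number did not deviate together (correlations of 0.06, -0.11 and 0.00), and samples with different numbers gave -0.08 to 0.08. No pairing by number was thus seen, though 3 arrays per genotype make this a weak check that cannot exclude one. With the number as a block 1795 genes passed and *Aqp3* was the only aquaporin whose call changed.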

Other observations

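Lists of other tissues were read in the same uteri. Of 9 stromal markers, *Col6a4* was higher (0.85) and *Mme*, a membrane peptidase, lower (-3.00), with a list median of 0.17. The summed signal went the other way, 1.769e+05 to 1.814e+05 in *Sox17f/f* against 1.489e+05 to 1.629e+05 in *Sox17ed/ed* uteri. Most of that sum was *Dcn*, the brightest probe of the list, whose difference of -0.42 did not pass. Of 5 mesothelial markers, *Krt19* (2.10) and *Upk3b* (1.56) were higher and *Lrrn4* was at least 2.35-fold lower, with 0 *Sox17ed/ed* arrays well above background, and *Krt19* also stands in the list for uterine epithelium. Of 5 oviduct markers, *Foxj1*, the factor of ciliated cells, was higher (2.44) and *Dnah5*, a dynein gene of cilia, lower (-2.82), with a median of -0.03, and each was well above background on 1 array of its dimmer genotype. These lists were read as counts and not tested as sets.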
